A study of Mus musculus with 2 samples.

Results

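The 10 genes described here make up the core of MHC class I antigen presentation in mouse liver. They are 7 class I heavy chain genes, the light chain gene B2m, the peptide transporter subunit gene Tap1 and the tapasin gene Tapbp. They were chosen by name, as the rows whose gene identifier, without its version, carries 1 of these symbols in the mouse GENCODE annotation, and all 10 were found among 43346 mouse gene rows in each library. The tissue was liver from C57BL/6J, an inbred laboratory strain, at the adult age of 8 weeks, with no treatment named, the sex not collected and the health state unknown. Total RNA longer than 200 nucleotides was sequenced in 2 libraries, biological replicates 1 and 2, which form 1 group. The labels give each library its own biosample but both the same donor identifier, so the spread between the libraries may be technical, and with 1 group no test between conditions was possible.

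MHC class I molecules show peptides made inside the cell to CD8 T cells at the cell surface. A heavy chain pairs with the light chain, β2-microglobulin, and takes up a peptide in the endoplasmic reticulum. The peptides are cut by the proteasome, carried across the membrane by the TAP transporter and loaded with the help of tapasin, which holds the empty heavy chain at the transporter. In the mouse, H2-K1 and H2-D1 are the classical, class Ia heavy chains, while the H2-Q and H2-T genes encode nonclassical, class Ib heavy chains, of which H2-Q10 is known as a secreted protein made in liver. Whole liver holds hepatocytes, Kupffer cells, endothelial cells and lymphocytes, and many of these carry class I.

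Of the 10 genes, 9 lie in the MHC region of chromosome 17 and B2m lies on chromosome 2 (mm10 assembly, GENCODE M21 annotation). H2-K1 (ENSMUSG00000061232.11) lies at chr17:33996017-34000347 on the minus strand. H2-D1 (ENSMUSG00000073411.7) lies at chr17:35262730-35267499 on the plus strand. The Q genes follow on the plus strand, with H2-Q4 (ENSMUSG00000035929.11) at chr17:35379617-35385290, H2-Q6 (ENSMUSG00000073409.8) at chr17:35424850-35430055, H2-Q7 (ENSMUSG00000060550.11) at chr17:35439155-35443773 and H2-Q10 (ENSMUSG00000067235.10) at chr17:35470089-35474563. H2-T23 (ENSMUSG00000067212.8) lies at chr17:36029773-36032855 on the minus strand. Tapbp (ENSMUSG00000024308.10) lies at chr17:33915899-33929292 and Tap1 (ENSMUSG00000037321.13) at chr17:34187553-34197225, both on the plus strand. B2m (ENSMUSG00000060802.8) lies at chr2:122147686-122153083 on the plus strand.

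H2-Q10 differs from the classical heavy chains in the fifth exon, which in classical heavy chains encodes the membrane-spanning segment. Its coding part is printed here for the leading transcripts of the most abundant nonclassical and classical heavy chain, from the GENCODE M21 transcripts, 5′ to 3′, with a stop codon in capitals where the reading frame ends in that exon.
H2-Q10 exon 5, chr17:35473486-35473568, plus strand: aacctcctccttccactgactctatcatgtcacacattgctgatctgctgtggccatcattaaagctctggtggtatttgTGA
H2-K1 exon 5, chr17:33997038-33997157, minus strand: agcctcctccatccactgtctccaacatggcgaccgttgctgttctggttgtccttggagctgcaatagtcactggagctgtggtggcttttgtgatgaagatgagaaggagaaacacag

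The coding sequence of H2-Q10 stopped after 80 bases of exon 5, and all bases after the stop codon were untranslated. H2-K1 had 120 coding bases in exon 5 and read on into the exons after it, with 221 coding bases from exon 5 to the end of the frame. H2-Q7, which encodes a form of the Qa-2 antigen, kept 107 coding bases in exon 5 before its stop codon. The leading transcripts of H2-Q4 and H2-Q6 also stopped in exon 5, after 92 coding bases each, so a stop codon there was not particular to H2-Q10. The fourth exon, which encodes the domain next to the membrane, had 276 coding bases in both H2-Q10 and H2-K1 and 285 in H2-Q7.

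**Figure D1:**
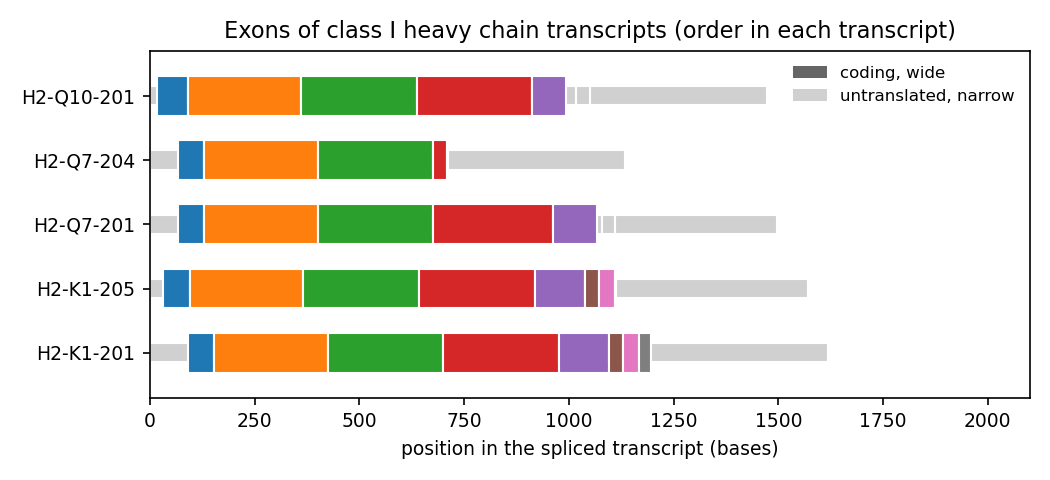
Exons of 5 heavy chain transcripts (rows, GENCODE M21) laid end to end, with the position in the spliced transcript in bases on the x axis; wide coloured bars are coding and narrow grey bars untranslated, and colours number the exons within each transcript. The coding part of H2-Q10-201 ends in the fifth exon, at 975 coding bases in all, against 1107 in H2-K1-201, and H2-Q7-204 has no exon in the place of exons 4 and 5 of H2-Q7-201.

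The upstream sequences are shown because the H2-K, H2-D and H2-Q heavy chains share a known regulatory module there. In mouse class I promoters, a GGGGATTCCCC element binds NF-kappa B family factors, and an interferon response element lies beside it. The 250 bases before the annotated start of the heavy chain genes with most RNA are printed from RefSeq (GRCm38.p6), with the kappa B type element and the interferon response element in capitals. Without its first capital, the response element reads GAAGTGAAA on the other strand.
H2-Q10 upstream, chr17:35469839-35470088, plus strand: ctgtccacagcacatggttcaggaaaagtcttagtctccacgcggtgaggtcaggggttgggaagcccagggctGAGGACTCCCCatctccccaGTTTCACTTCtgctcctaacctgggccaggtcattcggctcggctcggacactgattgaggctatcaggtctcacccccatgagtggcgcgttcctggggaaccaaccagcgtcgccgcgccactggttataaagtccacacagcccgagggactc
H2-K1 upstream, chr17:34000348-34000597, minus strand: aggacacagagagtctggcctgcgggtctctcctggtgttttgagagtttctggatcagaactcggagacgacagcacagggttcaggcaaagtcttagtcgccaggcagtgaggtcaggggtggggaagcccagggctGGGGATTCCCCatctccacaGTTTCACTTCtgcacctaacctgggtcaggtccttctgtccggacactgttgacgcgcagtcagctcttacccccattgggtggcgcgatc

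For H2-D1, H2-Q4, H2-Q6 and H2-Q7, the 30 bases that hold both elements are given with the same capitals. For B2m, the capitals mark GAAACTGAAA, a pair of GAAA repeats with 2 bases between, the pattern of an interferon response element.
H2-D1, chr17:35262923-35262952, plus strand: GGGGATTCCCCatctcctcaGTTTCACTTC
H2-Q4, chr17:35379443-35379472, plus strand: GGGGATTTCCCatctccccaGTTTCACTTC
H2-Q6, chr17:35424677-35424706, plus strand: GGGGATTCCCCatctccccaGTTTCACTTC
H2-Q7, chr17:35439021-35439050, plus strand: tGGGGATTCCCatctccccaGTTTCACTTC
B2m, chr2:122147546-122147575, plus strand: atGAAACTGAAAatgggaaagtccctttgt

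All 10 genes matched a RefSeq promoter window of 250 bases before and 50 after the start. The element GGGGATTCCCC was read from H2-K1, so its match there was given. Searched on both strands, it was also present in H2-D1 and H2-Q6. Of all 32851 windows, 10 held it (0.0304%), those of these 3 genes included. Counted from 1 at the 5′ end of the H2-K1 element, H2-Q10 carried the changes G2A and T6C and H2-Q4 carried C8T, while the H2-Q7 element was 1 base shorter. GAAGTGAAA was present in H2-K1, H2-D1, H2-Q10, H2-Q4, H2-Q6 and H2-Q7, and in 0.505% of all windows. A pair of GAAA repeats with 2 bases between, on either strand, was present in H2-T23 and B2m and in 3.44% of windows. The H2-D1 module lies within an exon of H2-D1 in GENCODE M21, whose gene model starts further upstream, and the H2-Q4 module lies under an exon of the antisense gene Gm11131. The H2-T23 match likewise lies within the first exon of H2-T23-201 in GENCODE M21. Neither Tap1 nor Tapbp held any of these 3 motifs in its window, and a match is a run of letters, not a measured binding site.

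Replicate 1 held 83816487 expected counts over endogenous genes and replicate 2 held 71068191, of which the 10 genes took 237300 in replicate 1 and 202084 in replicate 2. Levels are endogenous TPM, the deposited length-scaled abundances rescaled after leaving out the spike-ins. Protein-coding genes held only 12.2% of endogenous TPM in replicate 1 and 16.4% in replicate 2, so TPM values run higher in replicate 2 for most genes, with a median log2 ratio of TPM, replicate 1 over replicate 2, of -0.51. Ratios between the libraries are therefore given from counts, as log2 of replicate 1 over replicate 2 in CPM scaled by TMM, a factor that aligns the bulk of genes, plus 0.5. The hepatocyte markers summed to 10590 TPM in replicate 1 and 17458 TPM in replicate 2, and 5 of 5 had over 1 TPM in each library. By scaled counts, all 5 were also lower in replicate 1, where their log2 ratios ran between -0.72 and -0.05 about a median of -0.11. Markers of pancreatic acinar cells were higher in replicate 1 and those of adrenal steroid synthesis higher in replicate 2.

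All 10 genes were expressed, over a range of levels from about 1.57 to 231 TPM. H2-Q10 had 185 TPM in replicate 1 and 277 TPM in replicate 2, a mean of 231 ± 65.1 TPM (SD, n = 2, as for each level that follows). By mean TPM it ranked 75 among 21474 protein-coding genes. B2m had 176 TPM in replicate 1 and 195 TPM in replicate 2, at 186 ± 13.5 TPM and rank 99. H2-K1 had 162 TPM in replicate 1 and 196 TPM in replicate 2, at 179 ± 24.2 TPM and rank 104. The secreted heavy chain, the light chain and a classical heavy chain thus held the 3 highest places. Their library ranges overlapped for H2-Q10 and B2m and for B2m and H2-K1, so on this scale the order of neighbours among the 3 did not exceed the spread. Within a library, H2-Q10 was 1.05 times B2m in replicate 1 and 1.42 times in replicate 2, and the deposited intervals of the pair overlapped in neither. With TPM rescaled over protein-coding genes alone, H2-Q10 had 1519 TPM in replicate 1 and 1695 TPM in replicate 2, above B2m at 1446 TPM in replicate 1 and 1195 TPM in replicate 2, with no overlap of ranges. On that scale H2-K1 had 1330 TPM in replicate 1 and 1201 TPM in replicate 2, so B2m and H2-K1 were then both higher in replicate 1. B2m was above H2-K1 in replicate 1 and level with it in replicate 2, where the deposited intervals of both overlapped.

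H2-D1, the other classical heavy chain, had 55.2 TPM in replicate 1 and 66.7 TPM in replicate 2, at 60.95 ± 8.14 TPM. H2-T23, which encodes Qa-1, the heavy chain that presents leader peptides of other class I chains to natural killer receptors, had 31.9 TPM in replicate 1 and 48.5 TPM in replicate 2, at 40.2 ± 11.8 TPM. Both lay below the first 3 genes and above the remaining 5 in each library. H2-D1 was above H2-T23 by 1.73 times in replicate 1 and 1.38 times in replicate 2, and the library ranges did not overlap. The step below H2-T23 was the widest in the order, 4.98 times in replicate 1 and 5.04 times in replicate 2.

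The remaining genes held under 10 TPM in each library. Tapbp had 6.40 TPM in replicate 1 and 9.62 TPM in replicate 2, at 8.01 ± 2.28 TPM. H2-Q7 had 6.39 TPM in replicate 1 and 6.38 TPM in replicate 2, the closest pair of TPM values among the 10. Tapbp and H2-Q7 were level in replicate 1, with overlapping deposited intervals, while Tapbp was 1.51 times higher in replicate 2. H2-Q4, known as Qb-1, had 3.56 TPM in replicate 1 and 4.74 TPM in replicate 2, at 4.15 ± 0.832 TPM. Tap1, a subunit of the peptide transporter, had 1.67 TPM in replicate 1 and 2.60 TPM in replicate 2, at 2.13 ± 0.661 TPM. H2-Q6, another Qa-2 gene, had 1.44 TPM in replicate 1 and 1.71 TPM in replicate 2, at 1.57 ± 0.192 TPM. The library ranges of Tap1 and H2-Q6 overlapped, so their order did not exceed the spread, although Tap1 was higher in each library.

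**Figure D2:**
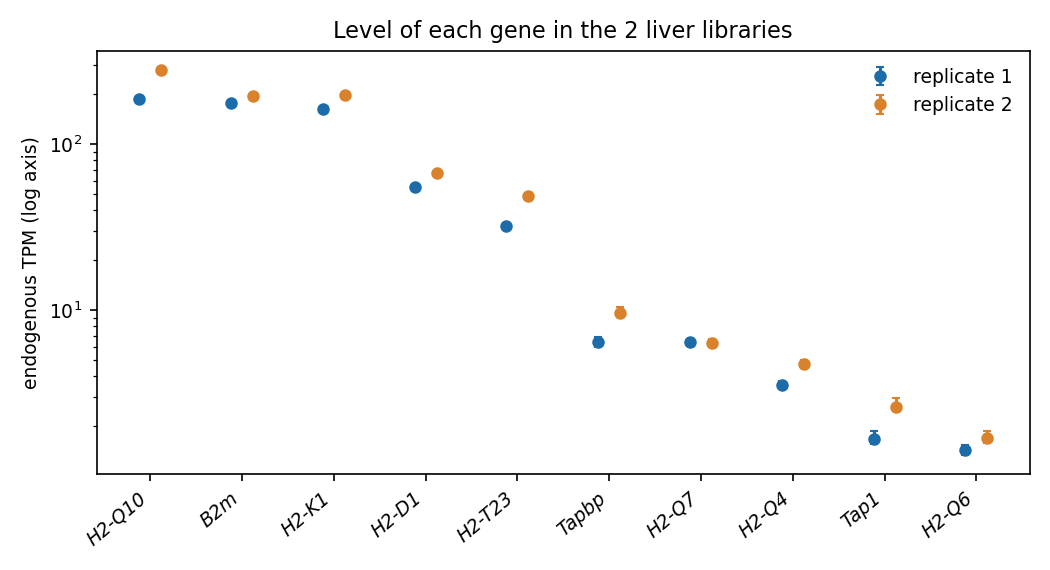
Endogenous TPM on a log axis for the 10 genes, ordered by mean, with replicate 1 to the left of replicate 2 for each gene; bars span the deposited interval bounds, whose level is not given in the sources used here. H2-Q10, B2m and H2-K1 stand together between 162 and 277 TPM, and the values fall to 1.44 TPM for H2-Q6 in replicate 1.

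Summed over the 7 heavy chains, class I heavy chain RNA stood at 446 TPM in replicate 1 and 602 TPM in replicate 2. H2-Q10 made up 41.5% of that sum in replicate 1 and 46.1% in replicate 2, at 43.8% ± 3.21 (SD, n = 2). H2-K1 followed with 36.4% in replicate 1 and 32.6% in replicate 2. H2-D1 gave 12.4% in replicate 1 and 11.1% in replicate 2, and H2-T23 gave 7.15% in replicate 1 and 8.06% in replicate 2. The 3 heavy chains H2-Q7, H2-Q4 and H2-Q6 each gave under 1.5%. The class Ib genes together had 228 TPM in replicate 1 and 339 TPM in replicate 2, and the class Ia genes had 217 TPM in replicate 1 and 263 TPM in replicate 2, so class Ib RNA was the larger sum in each library. Without H2-Q10, the other 4 class Ib genes together stayed below H2-D1 alone in each library.

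**Figure D3:**
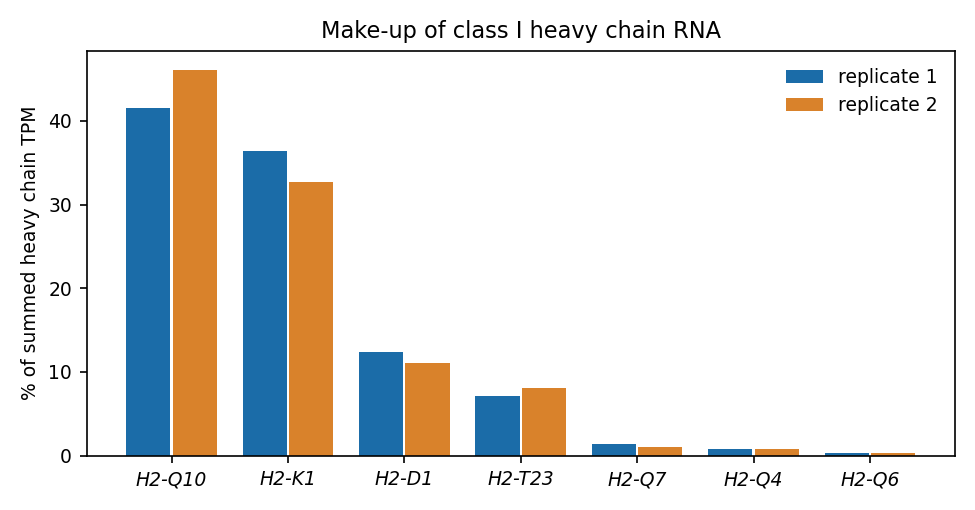
Share of each heavy chain gene in the summed TPM of the 7 genes, in percent, with replicate 1 bars left of replicate 2 bars. H2-Q10 has the tallest bar in both libraries, 41.5% in replicate 1 and 46.1% in replicate 2, followed by H2-K1 at 36.4% in replicate 1 and 32.6% in replicate 2.

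Some ratios between genes were nearly the same in the libraries and others were not. H2-K1 RNA was 2.94 times H2-D1 RNA in both. H2-Q10 RNA was 1.14 times H2-K1 RNA in replicate 1 and 1.41 times in replicate 2. B2m TPM came to 0.395 of the summed heavy chain TPM in replicate 1 and 0.325 in replicate 2, at 0.360 ± 0.050 (SD, n = 2). Each heavy chain molecule needs 1 light chain, and other proteins outside the H2 region also use B2m, but RNA levels do not give protein levels. Tapbp RNA was 3.84 times Tap1 RNA in replicate 1 and 3.70 times in replicate 2. The summed heavy chain TPM was 268 times that of Tap1 in replicate 1 and 231 times in replicate 2.

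None of the 10 genes lay over 2-fold apart between the libraries, against 2.36% of the 7702 genes that reached a mean of 1 endogenous TPM and of 10 counts. All 10 passed that filter. The ratio was above 0, higher in replicate 1, for 6 of the 10 and for 55.4% of all genes. The median log2 ratio of the 10 was 0.20, and that of all genes was 0.04, with a central 50% between -0.16 and 0.23. Each library is single, so these ratios describe 2 libraries, and intervals beside them are 95% intervals for counting error only.

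The classical heavy chains had nearly the same ratio. H2-K1 had 70285 counts in replicate 1 and 54929 in replicate 2, for a log2 ratio of 0.27 (counting interval 0.25 to 0.28). H2-D1 had 31637 counts in replicate 1 and 24846 in replicate 2, for a log2 ratio of 0.26 (0.24 to 0.28). Both counting intervals lay above 0 and above the median of all genes.

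The class Ib genes did not share a direction. H2-Q10 had 75937 counts in replicate 1 and 74104 in replicate 2, for a log2 ratio of -0.05 (-0.07 to -0.04). H2-T23 had 13154 counts in replicate 1 and 12921 in replicate 2, for a log2 ratio of -0.06 (-0.10 to -0.03). These 2 genes were slightly higher in replicate 2 after scaling. H2-Q7 had 2549 counts in replicate 1 and 1767 in replicate 2, for a log2 ratio of 0.43 (0.35 to 0.53), the highest ratio of the 10. H2-Q6 had 848 counts in replicate 1 and 648 in replicate 2, for a log2 ratio of 0.28 (0.15 to 0.45). H2-Q4 had 1938 counts in replicate 1 and 1643 in replicate 2, for a log2 ratio of 0.15 (0.05 to 0.24). The Q genes other than H2-Q10 were therefore higher in replicate 1.

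The light chain and the loading genes stood on opposite sides of 0. B2m had 36050 counts in replicate 1 and 25908 in replicate 2, for a log2 ratio of 0.39 (0.36 to 0.41). Tapbp had 3596 counts in replicate 1 and 4016 in replicate 2, for a log2 ratio of -0.25 (-0.31 to -0.18), the lowest of the 10. Tap1 had 1306 counts in replicate 1 and 1302 in replicate 2, and its log2 ratio of -0.08 (-0.20 to 0.03) had a counting interval that includes 0. The sign of these ratios depends on the scaling. With the summed spike-in counts as the total, the median of all genes was -0.27 and only H2-Q7 and B2m stayed above 0, and on endogenous TPM only H2-Q7 did. Relative to the median of all genes, H2-K1, H2-D1, H2-Q4, H2-Q6, H2-Q7 and B2m were higher in replicate 1. Another library total moves all genes nearly alike, so changing it could not test this. On endogenous TPM, where effective lengths also enter, the same 6 genes were above that median. After a correction for GC content, H2-Q10, H2-T23 and Tap1 were also above that median.

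The ratio of all genes moved with base composition, from a median of 0.23 in the lowest of 10 GC bins to -0.16 in the highest. B2m had a GC content of 41.2%, and the other 9 genes lay between 52.1% and 57.1%. With the GC correction, chosen after seeing the data, the ratio of B2m was 0.20, that of H2-K1 0.35, that of H2-D1 0.37 and that of Tapbp -0.08.

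**Figure D4:**
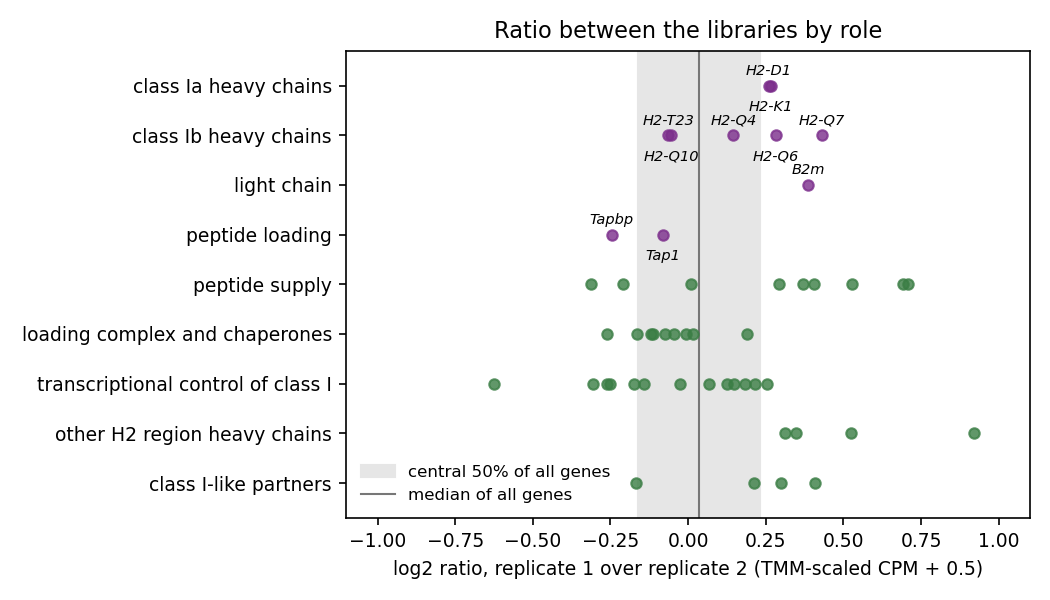
Log2 ratio of replicate 1 over replicate 2 for the 10 genes by role (purple, named) and for the genes of 5 related lists that passed the filter (green), with each point 1 gene, the grey band the central 50% of all 7702 genes and the line their median of 0.04. The classical heavy chains lie together at 0.26 and 0.27, B2m at 0.39, and both loading genes below 0.

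The genes that work with these 10 were read from 5 lists. Of 9 peptide supply genes, which cut or trim peptides, all passed the filter, 7 were higher in replicate 1, 0 lay over 2-fold apart, and the median log2 ratio was 0.37, within a range of -0.31 to 0.71. Lap3, a cytosolic aminopeptidase, was the highest at 41.5 ± 11.8 TPM, followed by the proteasome activator subunit gene Psme2 at 16.0 ± 0.752 TPM and by Psme1 at 11.04 ± 1.06 TPM. Psmb8, Psmb9 and Psmb10, the catalytic subunits of the immunoproteasome, had log2 ratios of 0.69, 0.71 and 0.37, and the peptide-trimming enzyme of the endoplasmic reticulum, Erap1, had 0.53. All 4 lay above the central 50% of genes, on the same side as B2m and the classical heavy chains, as did Psme2 at 0.40 and Psme1 at 0.29. The other peptide-trimming genes of the list did not, with 0.01 for Lap3, -0.31 for Npepps and -0.21 for Thop1. Psmb9 begins beside Tap1 on the opposite strand, and Tap1 had a ratio of -0.08.

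Of the 9 genes of the loading complex and its chaperones, all passed the filter, 2 were higher in replicate 1, and the median was -0.07, within -0.26 to 0.19. Hspa5, the chaperone BiP, stood at 121 ± 40.9 TPM, Calr, calreticulin, at 56.8 ± 17.0 TPM and Canx, calnexin, at 42.7 ± 6.41 TPM. These chaperones serve most secreted proteins. Tap2, the partner of Tap1 in the transporter, had 1.58 TPM in replicate 1 and 2.28 TPM in replicate 2, close to Tap1, and a log2 ratio of 0.02. Tapbpl, the tapasin relative TAPBPR, had 1.64 TPM in replicate 1 and 2.48 TPM in replicate 2. Tap1, Tap2 and Tapbpl were each under 3 TPM in each library, while the lowest value of the 3 chaperones was 38.2 TPM, for Canx in replicate 1.

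Of 16 genes for the transcriptional control of class I, 13 passed the filter, 6 were higher in replicate 1, and the median was -0.03, within -0.63 to 0.25. The interferon receptor subunit gene Ifnar2 stood at 10.11 ± 3.60 TPM and Irf1, an interferon-responsive transcription factor gene, at 5.23 ± 0.584 TPM. Nlrc5, the class I transactivator, had 1.81 TPM in replicate 1 and 2.36 TPM in replicate 2, with a log2 ratio of 0.15.

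Of 30 further heavy chain symbols of the H2 region, 25 matched a row and 4 passed the filter. No row matched H2-Q8, H2-Q9, H2-T9, H2-T26 or H2-L, so nothing is given for these. The ratio was above 0 for all 4, at a median of 0.44 within 0.31 to 0.92. H2-T22 stood at 16.2 ± 1.60 TPM, H2-Q5, an annotated polymorphic pseudogene, at 1.58 ± 1.51 TPM and H2-K2, an annotated pseudogene, at 1.36 ± 0.042 TPM. H2-Q5 had 145 counts in replicate 1 and 54.5 in replicate 2, yet 0.512 TPM in replicate 1 and 2.65 TPM in replicate 2. Its level and its ratio thus ran in opposite directions, and it passed the filter only through its TPM in replicate 2. Counts of 0 in both libraries were found for 13 of the 25, most of them of the H2-M family. The 25 together gave 19.7 TPM in replicate 1 and 24.7 TPM in replicate 2, well below the 7 heavy chains described above.

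Of 10 class I-like genes outside the H2 region, 4 passed the filter, and 3 of them were higher in replicate 1, at a median log2 ratio of 0.25. Azgp1, a secreted class I-like protein, stood at 200.1 ± 32.6 TPM, near H2-Q10 and B2m. Cd1d1, which presents lipids, stood at 47.7 ± 4.03 TPM and Fcgrt, the neonatal Fc receptor heavy chain, at 20.6 ± 2.50 TPM. Mr1, which presents microbial metabolites, lay over 2-fold apart with 545 counts in replicate 1 and 237 in replicate 2, for a log2 ratio of 1.00, but its level was below the filter.

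Transcript shares are the deposited percent of each transcript in the TPM of its gene. H2-K1 was carried by 2 protein-coding transcripts, H2-K1-201 at 65.1% in replicate 1 and 74.7% in replicate 2, and H2-K1-205 at 32.6% in replicate 1 and 23.6% in replicate 2. Their last exon starts at different places, and H2-K1-201 keeps 27 more coding bases there, so they differ at the cytoplasmic end of the heavy chain. H2-D1-202 held 95.6% of its gene in replicate 1 and 97.0% in replicate 2. H2-Q10-201, the transcript with the early stop codon printed above, held 98.6% in replicate 1 and 98.0% in replicate 2. The remainder of H2-Q10 was almost wholly the retained-intron transcript H2-Q10-203, which took 4.36% of the counts of the gene in replicate 1 and 6.13% in replicate 2. B2m had a single transcript in the files, and H2-Q6-202 held 100% in both libraries.

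H2-Q7 had no dominant transcript. H2-Q7-204 held 49.3% in replicate 1 and 37.3% in replicate 2, and H2-Q7-201 held 37.2% in replicate 1 and 47.1% in replicate 2, so the leading transcript differed between the libraries. H2-Q7-204 lacks the exons of 285 and 117 bases that are exons 4 and 5 of H2-Q7-201. Its annotated coding sequence has 645 bases, against 1002 in H2-Q7-201. Retained-intron transcripts made up a further 9.24% of H2-Q7 in replicate 1 and 15.7% in replicate 2. The exon lengths are those of GENCODE M21, in which H2-Q7-201 and H2-K1-201 are longer than in the deposited transcript table.

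Tap1 and Tapbp also had mixed transcripts. Tap1-206 held 55.0% of Tap1 in replicate 1 and 43.9% in replicate 2, and Tap1-201 held 29.8% in replicate 1 and 35.1% in replicate 2. Retained-intron transcripts gave 9.75% of Tap1 in replicate 1 and 13.8% in replicate 2. Tapbp-201 held 60.2% of Tapbp in replicate 1 and 72.6% in replicate 2. Retained-intron transcripts of Tapbp took 26.9% in replicate 1 and 17.5% in replicate 2. By counts, protein-coding transcripts held 90.6% of Tapbp in replicate 1 and 94.3% in replicate 2. The same share by counts was lower for H2-Q7, at 75.1% in replicate 1 and 66.4% in replicate 2. For H2-Q4 it was 75.5% in replicate 1 and 77.3% in replicate 2. The main retained-intron transcript, Tapbp-204, has 614 bases against 2894 for Tapbp-201, and TPM, unlike counts, divides by length. H2-Q4 had 17.7% in a retained-intron transcript in replicate 1 and 16.3% in replicate 2, and H2-T23 had 9.88% in replicate 1 and 9.92% in replicate 2. Among 3002 protein-coding genes with a retained-intron model and 1 TPM or more, the median share was 9.47% in replicate 1 and 9.62% in replicate 2, so H2-T23 lay near the median of such genes.

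**Figure D5:**
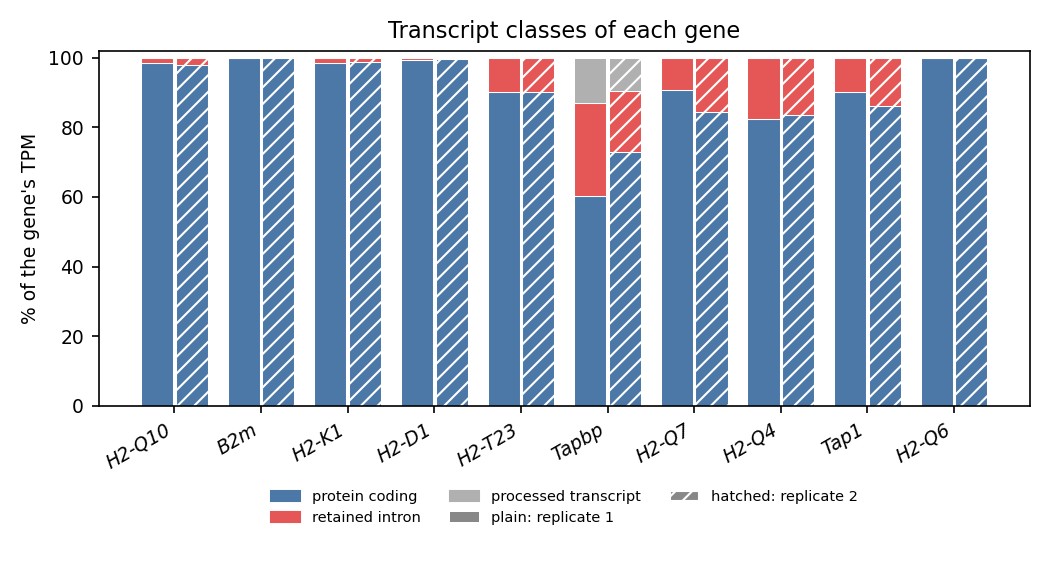
Percent of the TPM of each gene in protein-coding, retained-intron and processed transcripts, with genes ordered by mean level and plain bars (replicate 1) left of hatched bars (replicate 2). The 4 most abundant genes are almost wholly protein-coding. Tapbp has the largest non-coding share of TPM, though not of counts, with 60.2% of TPM protein-coding in replicate 1 and 72.9% in replicate 2.

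Class I heavy chain genes are close copies of each other, and reads that match several of them were divided by the authors' quantification. The posterior SD of the count, a deposited measure of that uncertainty, was under 1% of the count for all 10 genes, as for 96.0% of all tested genes in replicate 1 and 95.8% in replicate 2. It was largest for H2-Q6, at 0.448% in replicate 1 and 0.670% in replicate 2, and next for H2-Q7, at 0.200% in replicate 1 and 0.360% in replicate 2. As a measure of sequence sharing, 32.0% of the 50-base stretches of H2-Q6-202 also occur in a transcript of another gene, with 13.95% of its stretches found in H2-Q7 and 12.3% in H2-Q4. The share was 28.8% for H2-T23, 14.3% for H2-D1, 10.96% for H2-Q10, 8.79% for H2-K1 and 0 for B2m. The share was 24.3% for H2-Q4 and 19.9% for H2-Q7-204, and the values of H2-Q4, H2-Q6, H2-Q7 and H2-T23 are uncertain as far as such reads were split among copies. Gm11131, antisense to H2-Q4, had 135 counts in replicate 1 and 140 in replicate 2, and whether the counting used strand is not stated.

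Markers of other cells moved between the libraries beside these ratios. In bulk tissue, fewer cells of a type and less RNA per cell cannot be told apart. The MHC class II genes, a mark of professional antigen-presenting cells, summed to 12.2 TPM in replicate 1 and 37.3 TPM in replicate 2, with 4 of 4 higher in replicate 2, Cd74 and H2-Ab1 over 2-fold, and a median log2 ratio of -0.92. The 7 B lineage markers summed to 1.62 TPM in replicate 1 and 12.6 TPM in replicate 2. Igkc and Igha passed the filter and were over 2-fold higher in replicate 2, as were 0.792% of all genes. The filter takes the mean of both libraries, and Igha, with 0.151 TPM in replicate 1, passed only through replicate 2. Igha therefore entered the call through replicate 2 alone, with 59 counts in replicate 1 and 525 in replicate 2. The B lineage markers that failed the filter also had more counts in replicate 2. By scaled counts, the classical heavy chains and B2m were higher in replicate 1. On TPM they too were higher in replicate 2, with log2 ratios of -0.28 for H2-K1, -0.27 for H2-D1 and -0.15 for B2m. The 7 Kupffer cell or macrophage markers summed to 49.0 TPM in replicate 1 and 55.1 TPM in replicate 2, with 3 of the 5 that passed the filter higher in replicate 1 and a median of 0.35. The 6 sinusoidal endothelial markers summed to 37.2 TPM in replicate 1 and 49.7 TPM in replicate 2, with a median of 0.05 and Lyve1 over 2-fold higher in replicate 2. Lyve1, at 0.622 TPM in replicate 1, likewise passed the filter only through replicate 2. The 6 T or NK markers summed to 0.231 TPM in replicate 1 and 0.352 TPM in replicate 2, and the 5 dendritic markers to 0.672 TPM in replicate 1 and 1.00 TPM in replicate 2. None of these 11 markers passed the filter, and Trac was at 0 in replicate 1. Acinar markers summed to 91.1 TPM in replicate 1 and 31.9 TPM in replicate 2, with 5 of 5, Cela2a, Try4, Pnlip, Cpb1 and Ctrb1, over 2-fold higher in replicate 1, as were 1.57% of all genes. The 5 adrenal markers summed to 0.181 TPM in replicate 1 and 13.8 TPM in replicate 2, with Cyp11a1 at 0 counts in replicate 1. Star and Hsd3b1, the 2 that passed the filter, were over 2-fold higher in replicate 2. With 0.060 TPM for Star and 0.100 TPM for Hsd3b1 in replicate 1, both entered the call through replicate 2 alone. The adrenal markers that failed the filter also had more counts in replicate 2. Cyp11b1 had 4 counts in replicate 1 and 1159 in replicate 2, and Cyp21a1 had 10 in replicate 1 and 704 in replicate 2. The 4 skeletal muscle markers summed to 3.77 TPM in replicate 1 and 0.020 TPM in replicate 2, with Myh4 and Tnnt3 at 0 counts in replicate 2. The part of any of these cells in the ratios of the 10 genes was not tested.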

How the data were processed

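Total RNA of mouse liver was sequenced in 2 libraries of 1 group. The assembly was mm10, per the labels, and the authors named GENCODE M4 in the notes deposited with each library; for the aligner and quantifier a name is not given in the sources used here, though RSEM writes columns of these names. Expected counts are the authors' estimated fragments per gene, not normalized. Deposited TPM values are length-scaled over all features, spike-ins included. Deposited FPKM values were used only as an alternative. Deposited isoform values are the percent of each transcript in its gene. The deposited interval bounds of TPM were used as a signal range of the estimate. The posterior SD of the count is also a deposited value.

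Expected counts were rounded for edgeR 4.0.16 (TMM factors 0.950 and 1.05) and DESeq2 1.42.0 in R 4.3.3. Other values were computed in Python 3.11.15. The log2 ratio used CPM + 0.5, equal to 39.8 counts in replicate 1 and 37.4 in replicate 2, and so understates changes of low genes. Counting intervals are exact binomial at 95% and cover counting error only. They use rounded counts and the TMM totals without the added 0.5 CPM, so a ratio need not sit at the middle of its interval. Of 43346 gene identifiers, 42462 matched GENCODE M21 and 884 did not. The genes named are all 10 genes described and, in each list, the 3 highest by TPM and any over 2-fold apart. Psmb8, Psmb9, Psmb10, Erap1, Npepps, Thop1, Tap2, Tapbpl, Nlrc5, H2-Q5, Gm11131, Igkc and Igha were also named for their role or their values after these were seen. A gene that the rule names and a sequence are not reported here. The genes and lists were chosen with earlier results of these data known. With 1 group of 2 libraries, no test was run.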

Additional observations from a re-analysis of the deposited data

How the results depend on the processing

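The median log2 ratio of the 10 genes was 0.20, and it was -0.11 with spike-in scaling and -0.34 on endogenous TPM, scalings that put the median of all genes at -0.27 and -0.51. With DESeq2 size factors, protein-coding totals, a pseudocount of 0.01, posterior mean counts or the GC correction, it stayed between 0.15 and 0.22. The count of genes over 2-fold apart was 0 under every alternative run. All 10 genes passed the filter, so the run without it could not differ. Levels moved for all 10 genes with the unit: H2-Q10 stood at 1607 TPM over protein-coding genes and 732 FPKM, and H2-Q6 at 11.1 TPM and 5.06 FPKM. The H2-Q10 share of heavy chain TPM was 41.5% to 46.1% over single libraries, 42.0% with the other heavy chains added and 41.0% by expected counts. B2m over heavy chains was 0.325 to 0.395 over single libraries and 0.168 by expected counts. Counts are not divided by length, so they run lower for the shorter B2m transcript. The leading transcript share moved for 6 of 10 genes when taken from counts, H2-Q7-204 to 30.6% and Tapbp-201 to 92.4% among them. No paired analysis was possible because both libraries form 1 group. The 2 libraries of 1 donor identifier cannot separate animal from technical spread, and the level of the deposited intervals is not given.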
